A study of Mus musculus with 6 samples.

Results

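The genes that license origins of DNA replication were examined in regulatory T cells (Tregs) that had lost histone deacetylase 11 (HDAC11). They were chosen by name: the 6 subunits of the minichromosome maintenance (MCM) helicase, Mcm2 to Mcm7, the helicase-associated factor Mcm10, the loading factors Cdc6 and Cdt1, and Gmnn, which encodes geminin. These are 10 of the 12393 genes on the array with a probe set annotated to a single gene symbol, and all 23 of their probe sets among 22626 tested were used. Expression had been measured on Affymetrix Mouse430A arrays, 3 of HDAC11−/− Tregs and 3 of WT Tregs. The HDAC11−/− cells came from fl-HDAC11/Foxp3cre mice, in which a floxed Hdac11 gene is cut by a Cre recombinase, fused to a yellow fluorescent protein and expressed from the Foxp3 locus, so deletion is limited to cells that have switched on Foxp3. The WT cells came from C57BL6 mice for which no Cre allele is named, so effects of the deletion and of the Foxp3-Cre allele cannot be told apart. Both were CD4+CD25+ cells taken with magnetic beads, which enriches Tregs and can leave other CD25+ cells in the fraction, and no stimulation of the cells is given for the arrays. The floxed and Cre strains had been backcrossed to C57BL/6, and mice in the study were in general 6 to 8 weeks old. The 3 samples of a genotype are described as independent, but whether a sample is 1 mouse is not said, and p-values here cover the spread among these arrays, which may be technical.

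In cells that are about to divide, the origin recognition complex marks replication origins, and Cdc6 and Cdt1 then load the MCM hexamer onto the DNA as an inactive ring. When S phase begins, kinases, Cdc45, the GINS complex and Mcm10 turn the ring into a moving helicase that unwinds DNA ahead of the polymerases. Geminin binds Cdt1 in S, G2 and M phase and blocks new loading, so that an origin does not fire again before the next division. Many of these genes are targets of E2F transcription factors, and most are silent or low in resting T cells and high in cycling ones.

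Each array gave 1 log2 value per probe set, normalized by the authors with robust multiarray averaging (RMA). A call needed 2 things, an adjusted p under 0.05 from limma (Benjamini-Hochberg over all 22626 probe sets) and a difference of at least 1.5-fold, which is 0.585 on the log2 scale. A gene was represented by its brightest probe set, the one with the highest mean over the 6 arrays. Array medians lay between 6.74 and 6.77, and the correlation between arrays was 0.998 to 0.999 within HDAC11−/−, 0.997 within WT and 0.985 to 0.988 between genotypes. Hdac11 itself differed by -0.12 in its brighter probe set (adjusted p = 0.222 from limma) and by -0.10 in the other (adjusted p = 0.532), but where its probes lie relative to the deleted part is not stated in the sources used, so neither the labels nor the deletion can be checked with these values. Of all 12393 genes, 3.46% were called higher and 3.72% lower. By adjusted p alone 22.9% were higher, and 2869 genes were lower. Of 7 Treg markers 0 were called, and by adjusted p alone 1 was higher (Ctla4 at 0.50) and 2 were lower (Ikzf2 at -0.35 and Cd4). Of the defining ones, Il2ra (-0.01) and Cd3e (-0.02) had log2 fold changes near 0, Cd4 was at -0.32 (adjusted p = 0.00121 from limma), and Foxp3, at a mean log2 level of 3.73 in HDAC11−/− and 3.68 in WT, was no brighter than the bacterial control probe sets in both, so its level could not be read.

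The promoters of 8 of the 10 genes, as RefSeq windows on GRCm38.p6 from 250 bases before to 50 bases after the transcription start, were searched for 4 words of the E2F consensus (TTTCCCGC, TTTCGCGC, TTTGCCGC and TTTGGCGC) and for CCAAT, each on both strands. An E2F word was present in 6 genes (Mcm3, Mcm5, Mcm6, Mcm7, Cdc6 and Cdt1), while 2.26% of all 32851 windows, or 2.6% of 27025 genes, held one. CCAAT, the core of the site bound by NF-Y, was present in 6 genes (Mcm2, Mcm3, Mcm5, Mcm6, Mcm7 and Mcm10), against 37.4% of all windows or 41.1% of genes, and 4 genes held both motifs. The Mcm4 and Gmnn windows were not analysed here. A match is a string of letters and not a measured site. The windows below are those of the gene with the largest rise in these arrays (Cdc6), of helicase subunits with large, intermediate and small changes (Mcm3, Mcm6 and Mcm7), and of Mcm10, which was called higher and whose window holds no E2F word. Capitals mark E2F words, the sequences run 5′ to 3′ on the strand of the gene, and adjoining capitals in Mcm6 are 2 overlapping words on opposite strands.
Cdc6 promoter: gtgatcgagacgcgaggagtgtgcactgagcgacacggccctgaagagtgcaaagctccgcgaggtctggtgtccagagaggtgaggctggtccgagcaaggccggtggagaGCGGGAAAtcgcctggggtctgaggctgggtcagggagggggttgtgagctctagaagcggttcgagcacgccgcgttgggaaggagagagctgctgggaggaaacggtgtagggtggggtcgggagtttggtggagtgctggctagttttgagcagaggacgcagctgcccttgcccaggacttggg
Mcm3 promoter: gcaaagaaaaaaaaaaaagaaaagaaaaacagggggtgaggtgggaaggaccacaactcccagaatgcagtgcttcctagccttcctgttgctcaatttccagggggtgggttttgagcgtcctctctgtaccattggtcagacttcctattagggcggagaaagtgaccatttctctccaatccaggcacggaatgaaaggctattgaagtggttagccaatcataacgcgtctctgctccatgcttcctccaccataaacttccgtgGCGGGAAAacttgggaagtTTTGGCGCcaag
Mcm6 promoter: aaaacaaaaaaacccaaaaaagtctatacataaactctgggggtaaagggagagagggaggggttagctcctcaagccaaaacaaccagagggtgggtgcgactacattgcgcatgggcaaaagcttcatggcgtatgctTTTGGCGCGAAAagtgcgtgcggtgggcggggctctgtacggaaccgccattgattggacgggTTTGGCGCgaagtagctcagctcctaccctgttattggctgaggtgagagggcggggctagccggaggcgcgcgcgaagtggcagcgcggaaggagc
Mcm7 promoter: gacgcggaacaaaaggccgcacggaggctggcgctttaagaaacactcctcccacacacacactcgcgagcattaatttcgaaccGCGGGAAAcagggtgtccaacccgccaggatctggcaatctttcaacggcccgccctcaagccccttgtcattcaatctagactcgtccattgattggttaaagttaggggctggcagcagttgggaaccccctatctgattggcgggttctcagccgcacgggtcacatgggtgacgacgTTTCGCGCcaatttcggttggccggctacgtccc
Mcm10 promoter: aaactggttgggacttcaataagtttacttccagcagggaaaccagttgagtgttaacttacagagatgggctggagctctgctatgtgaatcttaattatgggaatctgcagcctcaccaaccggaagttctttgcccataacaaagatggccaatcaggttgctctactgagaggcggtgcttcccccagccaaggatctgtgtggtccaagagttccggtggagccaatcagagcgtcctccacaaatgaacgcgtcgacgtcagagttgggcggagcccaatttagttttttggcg

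The Cdc6 window (chr11:98907901-98908200, plus strand) holds a single word, whose first base lies 138 bases before the start. The Mcm3 window (chr1:20820263-20820562, minus strand) has its words at positions 20 and 39 of the transcript, beyond the start. The Mcm6 window (chr1:128359656-128359955, minus strand) has 3, beginning 110, 106 and 47 bases before the start. The first of the 2 Mcm7 windows (chr5:138171834-138172133, minus strand) has one 165 bases before the start and one at position 17 after it, and the second window has none. The Mcm10 window (chr2:5012742-5013041, minus strand) has 3 CCAAT boxes and no E2F word. Its last bases, tttggcg, are the word TTTGGCGC without its last letter, and the base beyond the window was not read. Not shown, the Mcm5 window (chr8:75109259-75109558, plus strand) holds 2 overlapping words, the Cdt1 window (chr8:122567765-122568064, plus strand) 1, and the Mcm2 window (chr6:88898731-88899030, minus strand) none.

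All 10 licensing genes were higher in HDAC11−/− Tregs than in WT Tregs, from 1.17-fold for Mcm7 to 4.25-fold for Cdc6. By the brightest probe set 7 of the 10 were called higher (Mcm2, Mcm3, Mcm4, Mcm5, Mcm10, Cdc6 and Gmnn), where 3.46% of all genes were called higher, and 0 were called lower, where 3.72% of all genes were. The other 3, Mcm6, Mcm7 and Cdt1, passed the adjusted p but stayed under 1.5-fold, so that 10 of 10 were higher by adjusted p alone, against 22.9% of all genes. Each of the 10 also had at least 1 probe set that met both criteria, against 5.31% of all genes. The median log2 fold change of the 10 was 0.81, while that of all genes was -0.04. The study picked licensing genes for display from these same arrays, so the direction seen here is no independent evidence.

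Counted by probe set, 15 of 23 were called higher, where 3.87% of all probe sets were. The groups did not overlap, with all HDAC11−/− arrays above all WT arrays, in 21 of the 23, against 28.2% of all probe sets. The remaining 2, one each of Mcm10 and Cdt1, had every array at or below the highest of 27 bacterial control probe sets on the same array and gave no readable level. These arrays measure RNA of bulk cells, so more cells that express a gene and more RNA of it per cell cannot be told apart. The sign of the change by the brightest probe set was positive for all 10 genes also when scaled on reference genes, on the bacterial controls or on the cre spike-in, but on the reference genes Mcm7, at 0.11, no longer passed (adjusted p = 0.0750 from limma).

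**Figure D1:**
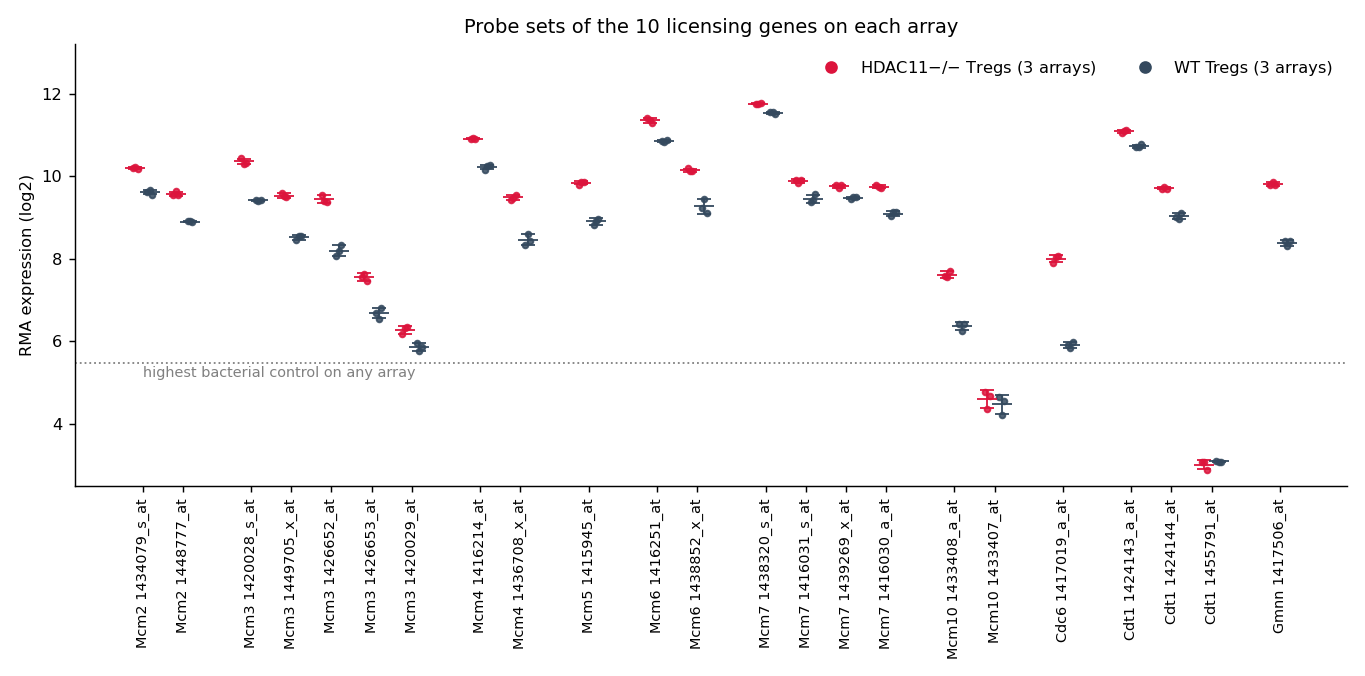
RMA expression on the log2 scale (vertical axis) of the 23 probe sets of the 10 licensing genes (horizontal axis), HDAC11−/− arrays in red and to the left of the WT arrays in blue, each dot 1 array, and bars for the mean and its SD (n = 3). The red and blue dots are apart in 21 probe sets, and the Mcm10 and Cdt1 probe sets below the dotted line, the highest bacterial control on any array, overlap.

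Other expression differences ran alongside those of the licensing genes. Among all genes 3.46% were called higher and 3.72% lower. Of 9 immediate early genes, which respond to stimulation and to handling of cells, 7 were called higher and 0 lower, and their summed linear level was 49646 to 49985 on the HDAC11−/− arrays and 10280 to 10597 on the WT arrays. Of 5 measured B cell markers 0 were called higher and 3 lower, with a summed level of 482 to 505 on the HDAC11−/− arrays and 1251 to 1263 on the WT arrays, and 1 of the 5 lay within the bacterial control range in both genotypes. Of 7 dendritic cell and monocyte markers 0 were called higher and 2 lower, with sums of 1931 to 1974 on the HDAC11−/− arrays and 4149 to 4304 on the WT arrays, and 2 lay within that range in both. The 2 called lower were H2-Aa (-1.60) and Cd74 (-0.79), genes of antigen presentation that B cells also express. Without them the sums were 212 to 229 on the HDAC11−/− arrays and 222 to 234 on the WT arrays, which overlap. These sums join opposite shifts that were not called. Itgax was at -0.39 (adjusted p = 0.00129 from limma), and Lyz2, within that range in WT, was at least 1.12-fold higher (adjusted p = 0.000320). Of 4 erythroid precursor markers 0 were called, with sums of 1285 to 1363 on the HDAC11−/− arrays and 1043 to 1108 on the WT arrays, 2 of them within that range in both. Most of these sums came from Tfrc, at a mean log2 level of 10.25 in HDAC11−/− and 9.93 in WT. It was the only one of the list higher by adjusted p alone (0.00223 from limma). The other above that range, Alas2, overlapped between genotypes (adjusted p = 0.217). Of 4 CD8 T and NK cell markers 0 were called higher and 1 lower, with sums of 488 to 506 on the HDAC11−/− arrays and 484 to 530 on the WT arrays. The one called lower was Ncr1 (-1.04, adjusted p = 7.10e-05 from limma). These sums too join opposite shifts. Klrd1 was at -0.34 (adjusted p = 0.00276 from limma) and Cd8b1 at 0.42 (adjusted p = 0.00671), neither called, and Cd8a overlapped between genotypes. The part of these shifts in the licensing result was not tested.

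Among the helicase subunits, Mcm3 and Mcm5 changed most by the brightest probe set, close to 1.9-fold, and Mcm7 least. The subunits form a closed ring in the order Mcm2, Mcm5, Mcm3, Mcm7, Mcm4 and Mcm6, and the ATP sites lie between neighbours. Mcm3, whose end touches the origin recognition complex and Cdc6 during loading in yeast, read 10.43, 10.30 and 10.33 on the HDAC11−/− arrays and 9.42, 9.41 and 9.43 on the WT arrays. Mcm5, which in yeast forms with Mcm2 the gate through which the ring opens, read 9.79, 9.86 and 9.87 on the HDAC11−/− arrays and 8.82, 8.92 and 8.97 on the WT arrays. In both genes the lowest HDAC11−/− array stood at least 0.82 above the highest WT array. The log2 fold change was 0.94 for Mcm3 (95% interval 0.81 to 1.06, adjusted p = 4.24e-05 from limma) and 0.93 for Mcm5 (0.80 to 1.07, adjusted p = 6.07e-05).

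Mcm4 belongs to the subcomplex of Mcm4, Mcm6 and Mcm7 that unwinds DNA on its own in the test tube. It read 10.90, 10.92 and 10.90 on the HDAC11−/− arrays and 10.16, 10.24 and 10.27 on the WT arrays, a log2 fold change of 0.68 (0.57 to 0.80, adjusted p = 0.000113 from limma). Mcm2, a subunit that also binds histones, read 10.19, 10.23 and 10.18 on the HDAC11−/− arrays and 9.61, 9.66 and 9.55 on the WT arrays. The groups lay apart by 0.52, and the change of 0.59 (0.48 to 0.71, 1.51-fold, adjusted p = 0.000199 from limma) sat just past the fold threshold. The Mcm2 call was lost at 0.58 without HDAC11−/− replicate 2 and at 0.56 without WT replicate 3. When the arrays were scaled on reference genes, which moved every log2 fold change by -0.11, neither Mcm2 (0.48) nor Mcm4 (0.57) was called. Of those 12 reference genes, 4 were themselves higher by adjusted p alone and 0 were lower.

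Mcm6 read 11.40, 11.37 and 11.29 on the HDAC11−/− arrays and 10.84, 10.83 and 10.87 on the WT arrays. Mcm7 read 11.74, 11.76 and 11.76 on the HDAC11−/− arrays and 11.55, 11.54 and 11.50 on the WT arrays. Both sets of arrays were apart in each gene, by 0.42 for Mcm6 and by 0.19 for Mcm7, yet the changes of 0.50 (0.39 to 0.62, adjusted p = 0.000397 from limma) and 0.22 (0.12 to 0.32, adjusted p = 0.00588) did not reach 1.5-fold. The interval of Mcm7 does not overlap that of any other subunit's brightest probe set.

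**Figure D2:**
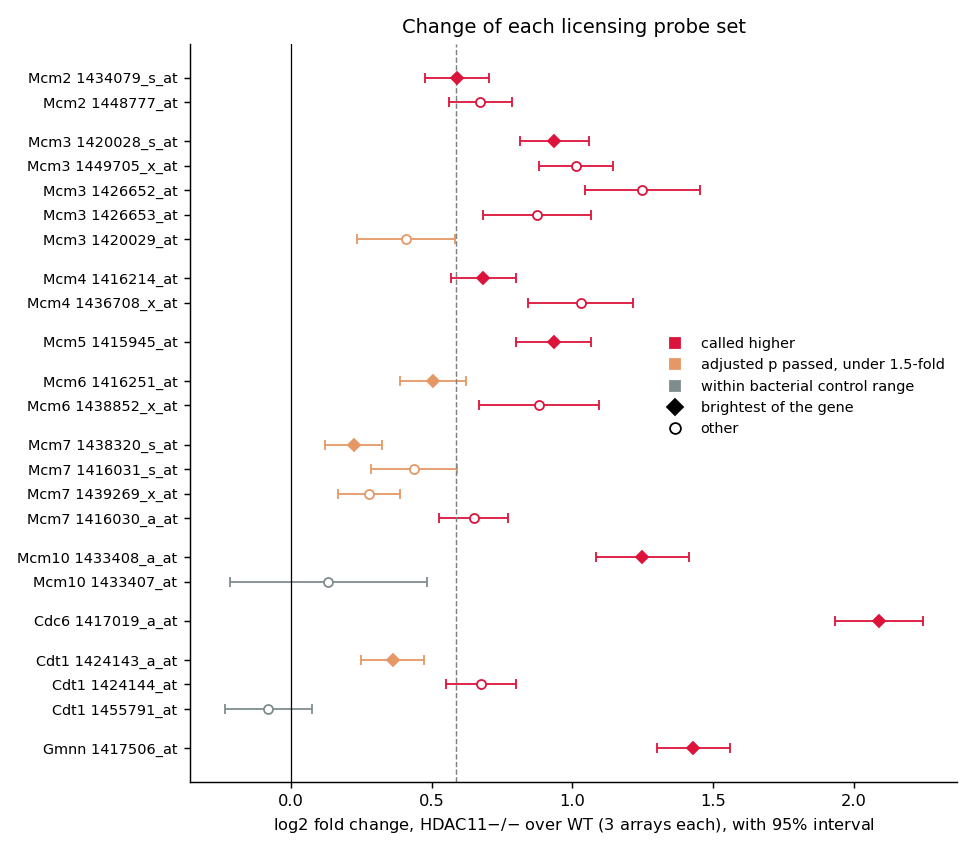
Log2 fold change, HDAC11−/− over WT, of each of the 23 probe sets (horizontal axis) with its 95% interval from limma (3 arrays per genotype). Filled diamonds mark the brightest probe set of a gene, open circles the others, and the dashed line 1.5-fold. Cdc6 stands farthest to the right at 2.09, and only the 2 grey probe sets of Mcm10 and Cdt1, within the bacterial control range, have intervals that reach 0.

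The size of the change depended on which probe set of a subunit was read. The 5 probe sets of Mcm3 ranged from 0.41 to 1.25, the 4 of Mcm7 from 0.22 to 0.65, the 2 of Mcm4 from 0.68 to 1.03 and the 2 of Mcm6 from 0.50 to 0.88. For Mcm2 the difference was small, at 0.59 and 0.67. The dimmer Mcm6 probe set, 1438852_x_at, read 10.19, 10.14 and 10.12 on the HDAC11−/− arrays and 9.23, 9.45 and 9.11 on the WT arrays and was called (adjusted p = 0.000469 from limma). One dimmer Mcm7 probe set, 1416030_a_at, read 9.78, 9.73 and 9.72 on the HDAC11−/− arrays and 9.03, 9.14 and 9.12 on the WT arrays and was called as well (adjusted p = 0.000180), while the other 2, at 0.44 and 0.28, were not. The largest change of any subunit probe set was that of Mcm3 1426652_at, with 9.55, 9.40 and 9.38 on the HDAC11−/− arrays and 8.06, 8.18 and 8.34 on the WT arrays. The one Mcm3 probe set that was not called, 1420029_at, was its dimmest, with 6.17, 6.31 and 6.36 on the HDAC11−/− arrays and 5.96, 5.78 and 5.87 on the WT arrays. Probe sets ending in _s or _x hold probes that can match other transcripts, and those ending in _a match several transcripts of a gene.

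In 5 of the 6 licensing genes with more than 1 probe set above the control range (Mcm2, Mcm4, Mcm6, Mcm7 and Cdt1), the brightest probe set had the smallest change. Mcm3 was the exception. The same was seen in 193 of 392 genes (49.2%) that have several such probe sets and at least 1 called higher. Whether a high signal compresses the measured change in these genes was not tested.

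**Figure D3:**
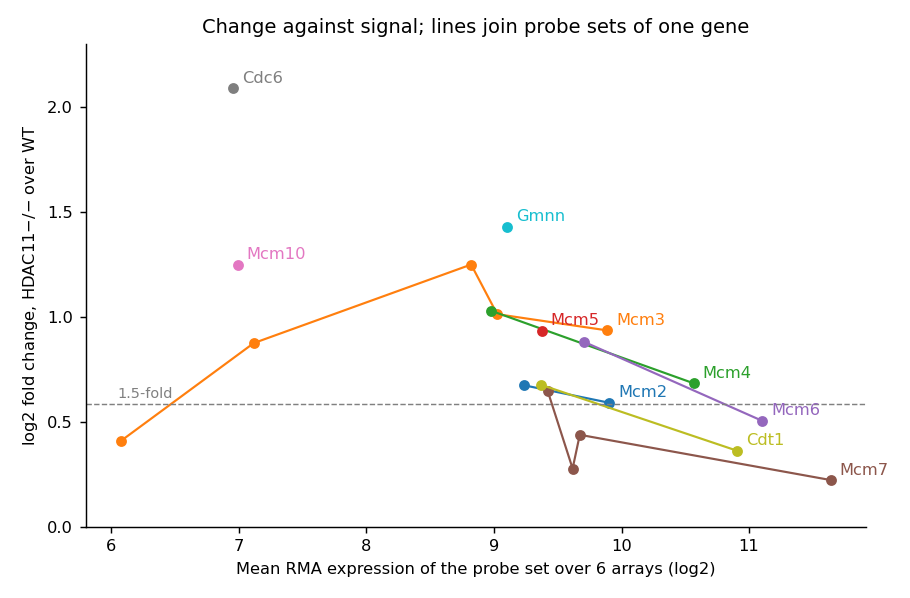
Log2 fold change, HDAC11−/− over WT (vertical axis), of the 21 licensing probe sets above the bacterial control range, against their mean RMA expression over 6 arrays (horizontal axis, log2). Lines join probe sets of 1 gene and the dashed line marks 1.5-fold. The brightest point is the lowest of its gene for Mcm2, Mcm4, Mcm6, Mcm7 and Cdt1, but not for Mcm3.

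Mcm10, which is no subunit of the ring but joins it when the helicase is activated, had a larger change than the brightest probe set of any subunit. It read 7.58, 7.55 and 7.71 on the HDAC11−/− arrays and 6.41, 6.26 and 6.42 on the WT arrays, so the groups lay 1.13 apart. The log2 fold change was 1.25 (SE 0.07, 95% interval 1.08 to 1.41, adjusted p = 4.39e-05 from limma), or 2.38-fold. Its other probe set, 1433407_at, read 4.78, 4.37 and 4.68 on the HDAC11−/− arrays and 4.66, 4.22 and 4.55 on the WT arrays. These values overlap and lie within the control range, so the rise of Mcm10 rests on a single probe set.

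Cdc6, the ATPase that recruits Cdt1 and the MCM ring to the origin recognition complex, showed the largest rise of the 10. Its only probe set read 7.90, 8.04 and 8.07 on the HDAC11−/− arrays and 5.92, 5.84 and 5.98 on the WT arrays. The WT arrays stood not far above the highest bacterial control, which lay between 5.27 and 5.48 on them, and every HDAC11−/− array was at least 1.92 above every WT array. The log2 fold change was 2.09 (SE 0.07, 95% interval 1.93 to 2.25, adjusted p = 4.77e-06 from limma), or 4.25-fold. That interval does not overlap the interval of any other licensing probe set.

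Cdt1, the loading factor that brings the MCM ring and that geminin inhibits, had a smaller change. Its brightest probe set, 1424143_a_at, read 11.05, 11.10 and 11.12 on the HDAC11−/− arrays and 10.70, 10.71 and 10.77 on the WT arrays. All HDAC11−/− arrays were higher, with a change of 0.36 (SE 0.05, 95% interval 0.25 to 0.47, adjusted p = 0.00117 from limma) that stayed under 1.5-fold. A dimmer probe set, 1424144_at, read 9.69, 9.73 and 9.69 on the HDAC11−/− arrays and 9.01, 8.97 and 9.11 on the WT arrays, and its change of 0.68 was called (adjusted p = 0.000167). The third, 1455791_at, was within the control range on all arrays (-0.08, adjusted p = 0.346), and its sign turned when the arrays were scaled on cre.

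Geminin, the inhibitor of Cdt1, rose 2.70-fold. The Gmnn probe set read 9.79, 9.86 and 9.79 on the HDAC11−/− arrays and 8.42, 8.30 and 8.43 on the WT arrays, and the groups were 1.36 apart. The log2 fold change was 1.43 (SE 0.05, 95% interval 1.30 to 1.56, adjusted p = 1.00e-05 from limma). Geminin is made from S phase onwards and destroyed at the end of mitosis through the anaphase-promoting complex, and an array measures its RNA and not the protein.

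The change of geminin was set against that of its target Cdt1. Within each array the log2 value of Gmnn minus that of the brightest Cdt1 probe set was -1.26, -1.24 and -1.33 in HDAC11−/− Tregs and -2.28, -2.41 and -2.34 in WT Tregs. The sign of these differences says nothing, as levels of different probe sets cannot be compared, but their shift between genotypes was 1.07, with no overlap. The exact two-sided permutation test over the 6 arrays gave p = 0.1, the smallest p that this test allows with 3 against 3 arrays. Groups that do not overlap always give this p, so the test adds nothing to the lack of overlap. Both genes were also chosen with results known. Against the Cdt1 probe set 1424144_at the shift was 0.75, again with no overlap and so with the same p = 0.1 by the exact test.

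Set side by side, the changes of the helicase subunits lay in a narrower range than those of the loaders and geminin. By the brightest probe set 4 of the 6 subunits were called, where 3.46% of all genes were called higher. The median log2 fold change of the subunits was 0.64 (1.56-fold), with a range of 0.22 to 0.94. Of Cdc6, Cdt1 and Gmnn, 2 of 3 were called, with a median of 1.43 (2.70-fold) and a range of 0.36 to 2.09. By probe set the counts were 3 of 5 for the loaders and geminin and 11 of 16 for the subunits, against 3.87% of all probe sets. The medians were 0.68 and 0.68. Without the Cdt1 probe set in the control range, the median of the other 4 loader and geminin probe sets was 1.05. Cdt1, at 0.36 by its brightest probe set, lay within the range of the subunits. Relative to the WT mean, the median of the subunits was 0.63, 0.66 and 0.63 on the HDAC11−/− arrays and rounded to -0.00, 0.01 and 0.01 on the WT arrays. The median of the loaders and geminin was 1.41, 1.48 and 1.40 on the HDAC11−/− arrays and 0.01, -0.07 and 0.04 on the WT arrays. With 3 genes, this median was the value of Gmnn on each HDAC11−/− array, with Cdc6 above it and Cdt1 below. The gap between the medians was alike on the 3 HDAC11−/− arrays, at 0.78, 0.82 and 0.78, and there it sets Gmnn alone against the subunits. Since the genes were chosen with results known, no p is given for this difference.

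Ranked by rise among all 12393 genes, Cdc6 stood at 32, Gmnn at 86, Mcm10 at 102, Mcm3 at 168 and Mcm5 at 169. Mcm4 followed at 316, Mcm2 at 419 and Mcm6 at 624. Cdt1 at 1254 and Mcm7 at 2388 came far behind, though still in the upper part of the ranking. By the brightest probe set 3 of the 10, Cdc6, Gmnn and Mcm10, were called higher and passed 2-fold, where 152 of all 12393 genes did. The genes with an E2F word in a window ran over the whole span, from Mcm7 at 0.22 to Cdc6 at 2.09. Those without one, Mcm2 and Mcm10, were at 0.59 and 1.25, but the Mcm10 window may cut a word off at its edge.

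**Figure D4:**
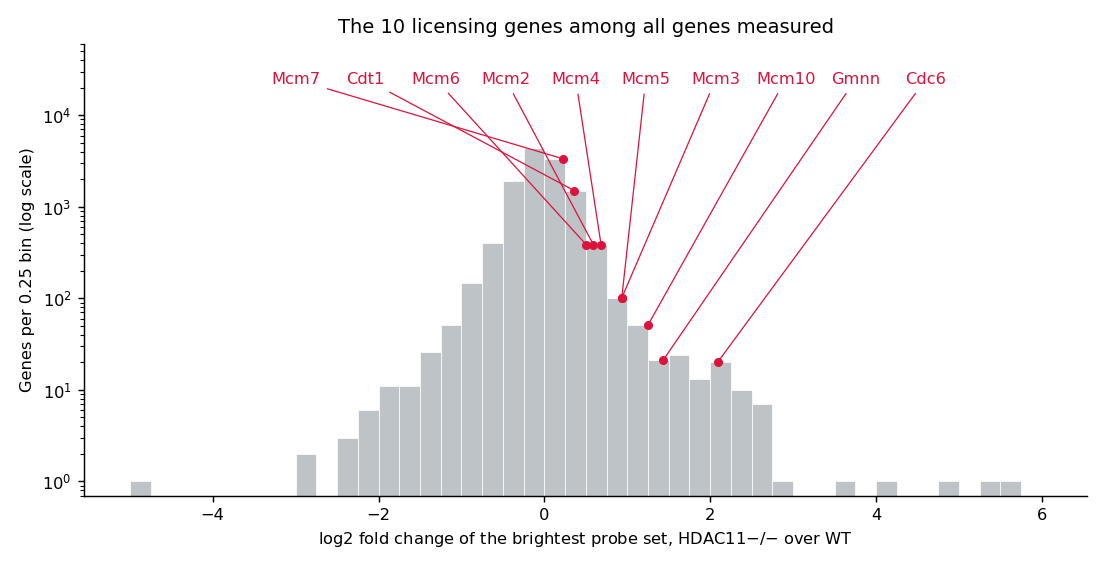
Number of genes (vertical axis, log scale) by log2 fold change of the brightest probe set, HDAC11−/− over WT (horizontal axis, bins of 0.25), for all 12393 genes, with the 10 licensing genes marked in red. All 10 lie to the right of 0, from Mcm7 at 0.22 to Cdc6 at 2.09.

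Other genes of replication and mitosis, called pathway genes here, differed by role. By median the licensing genes stood between the origin recognition genes and the mitotic genes. Of 69 listed genes 61 were measured, and 31 were called higher and 2 lower. Among all genes 3.46% were called higher and 3.72% lower. Of the 31, 13 were in the mitotic list and 10 in the S-phase list. The median log2 fold change of the 61 was 0.59, with the values as measured. In the origin recognition list, 1 of 8 was called higher and 0 lower, with a median of 0.20. The one called was Orc1, the ATPase subunit that Cdc6 resembles, whose WT arrays lay within the control range, so that it was at least 1.23-fold higher (adjusted p = 0.00596 from limma). By adjusted p alone 5 of the 8 were higher and 1 lower, where 22.9% of all genes were higher. Among the other MCM proteins and partners, 3 of 5 were measured, 0 were called higher and 1 lower, Mcm9, a paralogue that acts in DNA repair. Its arrays of both genotypes lay within the control range, so no fold is given.

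For helicase activation 10 of 13 genes were measured, of which 3 were called higher and 0 lower, with a median of 0.33. These were Cdc45, which joins the ring in the active helicase (1.13, adjusted p = 2.92e-05 from limma), Dbf4, the activating subunit of the kinase that phosphorylates the ring (0.88, adjusted p = 7.46e-05), and Gins1, a subunit of GINS (0.76, adjusted p = 0.000377). For turnover of licensing factors 10 of 11 were measured, of which 4 were called higher and 0 lower, with a median of 0.33. Cks1b, a cofactor of the ubiquitin ligase SCF-Skp2, was at 1.81 (adjusted p = 5.57e-06 from limma). Ccnf, the F-box protein cyclin F that targets Cdc6, was at 1.47 (adjusted p = 0.000234), Dtl, which directs the CRL4 ligase to Cdt1 on replicating DNA, at 1.38 (adjusted p = 0.000130), and Cul4a, the scaffold of that ligase, at 0.66 (adjusted p = 0.000278).

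Of 18 S-phase genes 17 were measured, 10 were called higher and 1 lower, with a median of 0.66, close to that of the helicase subunits. With bounds for genes within the control range in 1 genotype, this median was 0.59. The smallest adjusted p belonged to Rrm2 (2.04, adjusted p = 1.53e-05 from limma) and Rrm1 (1.06, adjusted p = 2.28e-05), both subunits of ribonucleotide reductase, to the polymerase gene Pola1 (1.13, adjusted p = 2.08e-05) and to the clamp loader gene Rfc4 (1.23, adjusted p = 2.89e-05). The one called lower was Tyms, thymidylate synthase, at least 1.49-fold lower in HDAC11−/− (adjusted p = 0.00317 from limma). Its HDAC11−/− arrays lay within the control range, and its other 2 probe sets lay within it on all arrays.

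Of 14 mitotic genes 13 were measured and all 13 were called higher, with a median of 1.93. The WT arrays of 2 of the 13 lay within the control range, so only a lower bound holds for those 2. With these bounds the median was 1.81. The smallest adjusted p belonged to Bub1, a kinase of the spindle checkpoint (2.68), Birc5, or survivin, of the chromosomal passenger complex (2.76), Ccna2, or cyclin A (2.37), and Top2a, the topoisomerase that untangles sister DNA (1.81). Each of these 4 exceeded every helicase subunit, and Cdc6 (2.09) was the only licensing gene above the mitotic median. What the share of cycling cells or the stage of their cycle contributes to these differences was not tested.

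**Figure D5:**
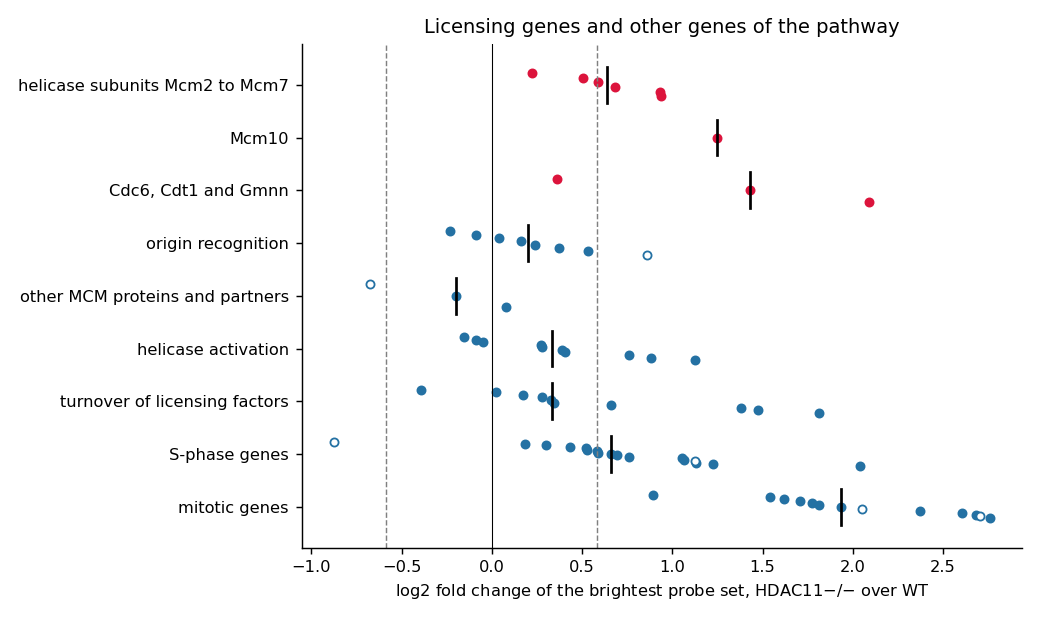
Log2 fold change of the brightest probe set, HDAC11−/− over WT (horizontal axis), for the licensing genes (red) and the other genes of the pathway (blue), 1 row per role, with the median of each row as a vertical bar and dashed lines at 1.5-fold in either direction. Open circles are genes with at least 1 genotype within the bacterial control range. Points and medians are values as measured, without bounds. The 13 mitotic genes lie farthest to the right, with a median of 1.93, and the 8 origin recognition genes center on 0.20.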

How the data were processed

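Total RNA of CD4+CD25+ Tregs was amplified, labelled with biotin and hybridised to Mouse430A arrays. The authors normalized the arrays by RMA in MAYDAY 2.12 and deposited log2 values, which were used without further normalization. Which probe definitions they used is not stated in the sources used. Of 22671 probe sets, 45 controls were left out. Platform annotation gave 1 symbol to 20380 of the others, several to 691 and none here to 1555. The values carry no detection calls, so a probe set at or below the highest bacterial control on every array of a genotype was given at most a bound, against the higher of that control and its own value on each array. In R 4.3.3, limma 3.58.1 (lmFit, then eBayes) was fitted with a genotype term alone and was checked on simulated data. Of 50 probe sets given a 1.5-fold change there, 18 were called and 35 passed the adjusted p. Of 50 given a 2-fold change, 47 were called. A gene changed by close to 1.5-fold can thus go uncalled. The authors used SAM, run here as an alternative with 20 labelings. Other alternatives were scaling, a trend with a robust prior, a filter, thresholds, other probe sets, a replicate block and leaving out arrays. The cre scale was added after seeing the data. Genes named are the 10 licensing genes, the called genes of each list with the smallest adjusted p (up to 4) and those called lower. Ctla4, Ikzf2, H2-Aa, Cd74, Itgax, Lyz2, Tfrc, Alas2, Ncr1, Klrd1, Cd8b1 and Cd8a were named after their values were seen. The genes and lists were chosen with earlier results of these data known. Figures used matplotlib 3.10.9. The number of arrays limits the precision.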

Additional observations from a re-analysis of the deposited data

How the results depend on the processing

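The 21 licensing probe sets above the control range were higher in HDAC11−/− under every setting run, and the fold threshold and the scale moved their calls. With no fold threshold 10 of 10 licensing genes, 21 probe sets and 48 pathway genes were called higher, and at 2-fold 3 genes, 6 probe sets and 22 pathway genes, against 7, 15 and 31. Among all 22626 probe sets, 5254 were called higher with no fold threshold and 253 at 2-fold, against 876. Scaling on 12 reference genes gave 5 licensing genes (Mcm7 at an adjusted p of 0.0750 from limma), 10 probe sets and medians of 0.52 for the subunits and 1.32 for loaders and geminin, and 563 probe sets higher and 1701 lower among all probe sets, against 876 and 1138. The 12 reference genes had a median log2 fold change of 0.06 and a maximum of 0.51, with 0 called. By adjusted p alone 4 of them were higher and 0 lower. Bacterial controls gave 0.66 for the subunits. The cre scale, chosen after seeing the data, shifts log2 fold changes by 0.48. Its 3 probe sets averaged 14.26 to 14.29 on the WT arrays and 13.77 to 13.80 on the HDAC11−/− arrays. These lie near the top of the values, as the highest on any array was 14.75. Why cre differed between the genotypes was not tested. The cre scale gave 10 licensing genes, 49 pathway genes, medians of 1.12 and 1.91, and 0.40 for Cdt1 1455791_at. Among all probe sets it gave 7310 higher and 331 lower. Which scale is right was not tested. The brightest probe set without a suffix gave 6 licensing genes, with Mcm7 and Cdc6 having none, and medians of 0.68 and 1.05, and the median over probe sets gave 9, with 0.77 for the subunits and 1.43 for loaders and geminin. SAM and the trend with a robust prior gave 7, 15 and 31, as did the filter, which left out 7425 probe sets. Same-numbered samples had residual correlations of 0.23, -0.02 and 0.16. Those of differently numbered samples were not computed, so whether the numbers pair the samples cannot be told. The replicate block gave 7 licensing genes, 15 probe sets, 31 pathway genes and 1.07 for geminin minus Cdt1. Leaving out each array in turn gave 6 to 7 licensing genes, 14 to 15 probe sets, 31 to 32 pathway genes and 1.04 to 1.10 for geminin minus Cdt1. Signal near the bacterial controls limits Cdc6 in WT and the second Mcm10 probe set.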
